A study of Rattus norvegicus with 11 samples.

Results

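The Hox genes were examined in the rat trigeminal ganglion (TRG), where the sensory neurons of the face have their cell bodies. Every probe of the array whose transcript accession belonged to a gene with a symbol of the form Hoxa, Hoxb, Hoxc or Hoxd and a number was a candidate, and 15 probes for 15 genes are described, of 13903 genes with a symbol and 24684 probes in all, 15323 of them for mRNAs. RefSeq lists 39 such rat genes, and the other 24 were not analysed here. In male Wistar rats, 1 whisker pad had been inflamed with CFA (complete Freund's adjuvant, killed mycobacteria in oil), 50 µl at 1 mg/ml given under the skin. At day 7 the TRG of the injected side (CFA, 6 arrays, from rats 1, 2, 3, 5, 6 and 8) and of the uninjected side (contralateral, 5 arrays, from rats 1, 2, 3, 5 and 6) were taken, so that both groups came from animals with an inflamed face and no untreated animal was among them. Strain and sex were the same in both groups, and an age was not given. The question the design puts is whether RNA levels in the TRG differ between the inflamed and the uninjected side. Each value below is 1 ganglion on 1 single-colour array, and the number of arrays limits the precision.

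Hox genes encode transcription factors with a homeodomain and lie in 4 clusters, named A to D. Along a cluster the genes are numbered by paralogue group, from 1 at the end used nearest the head to 13 at the end used nearest the tail, and in the embryo their order on the chromosome matches the order of their domains along the body axis. The trigeminal ganglion forms from cranial neural crest and a placode at the level of the front hindbrain, ahead of or at the border of the Hox domains, while dorsal root ganglia of the trunk form within them. Homeodomain proteins of the Pbx, Meis and Pknox families (the TALE class) bind DNA together with Hox proteins.

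The probes sampled all clusters. Cluster A gave 3 of its 11 RefSeq genes (Hoxa2, Hoxa7, Hoxa11), cluster B gave 5 of 10 (Hoxb3, Hoxb4, Hoxb7, Hoxb9, Hoxb13), cluster C 3 of 9 (Hoxc4, Hoxc5, Hoxc12) and cluster D 4 of 9 (Hoxd1, Hoxd4, Hoxd10, Hoxd13). Each gene had 1 spot on the array. The probe sequences were not used here, and whether a probe also binds the RNA of a paralogue, whose homeobox is similar, was not tested.

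Promoter sequence is shown for 2 genes that stood at the opposite ends of detection in this ganglion, Hoxd1 (above background on every array) and Hoxa11 (on no array). RefSeq promoter windows were held for 8 of the 15 genes (Hoxa2, Hoxa7, Hoxa11, Hoxc4, Hoxd1, Hoxd4, Hoxd10 and Hoxd13), on the assembly GRCr8. The 250 bases before each transcript start are printed 5′ to 3′ on the strand of the gene, chr3:80072791-80073040 (plus) for Hoxd1 and chr4:82676802-82677051 (minus) for Hoxa11, with each CG dinucleotide in capitals.
Hoxd1: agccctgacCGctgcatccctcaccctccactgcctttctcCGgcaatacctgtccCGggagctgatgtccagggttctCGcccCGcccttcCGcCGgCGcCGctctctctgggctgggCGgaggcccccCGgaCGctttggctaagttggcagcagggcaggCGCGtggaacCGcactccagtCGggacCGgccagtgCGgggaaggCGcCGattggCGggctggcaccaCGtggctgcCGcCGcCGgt
Hoxa11: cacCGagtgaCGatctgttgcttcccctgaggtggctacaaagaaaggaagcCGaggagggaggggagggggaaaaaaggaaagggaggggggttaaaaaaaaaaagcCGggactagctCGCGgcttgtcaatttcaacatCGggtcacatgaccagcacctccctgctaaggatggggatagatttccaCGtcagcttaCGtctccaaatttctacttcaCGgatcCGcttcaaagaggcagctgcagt
The Hoxd1 window held 25 CG dinucleotides and the Hoxa11 window 11, and their shares of G and C were 71.6% and 52.4%. These 2 genes were chosen by detection, and over the 8 windows the CG count did not follow detection. Hoxc4, Hoxd4 and Hoxd10, above background on all 11 arrays, had 3, 12 and 21. Hoxd13 (9 arrays) had 30, Hoxa2 (8 arrays) had 6 and Hoxa7 (3 arrays) had 28. Over the 8 Hox windows the median was 16.5 CG dinucleotides, beside a median of 5 over 33469 promoter windows of the same length. The median share of G and C was 62.2% against 51.2%. The letters TATAAA, searched on both strands, were in 12.5% of the Hox windows and 12.9% of all windows. The letters TGATNNAT, a form of the Pbx and Hox binding motif, were in 12.5% and 7.96%, and TTTATNA, a form of the Cdx and tail-end Hox motif, in 25% and 13.4%. With 8 windows, 12.5% is a single window, and the printed windows held none of these 3 motifs. These are descriptions of sequence, and no methylation or factor binding was measured.

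A probe counted as detected where the scanner software marked its spot as well above background, which requires a signal over the local background by a set multiple of the background's spread. Of the 15 Hox probes 6 were detected on all 11 arrays (Hoxd1, Hoxb4, Hoxc4, Hoxd4, Hoxb9 and Hoxd10), which is 40%, beside 79.55% of all mRNA probes. On no array were 2 detected, Hoxa11, known for the forearm and the uterus, and Hoxb13, known for the tail and the prostate. That is 13.33%, beside 6.108% of mRNA probes. The other 7 were detected on some arrays, namely Hoxd13 on 9, Hoxa2 on 8, Hoxb3 on 7, Hoxb7 on 6, Hoxc12 on 5 and Hoxa7 and Hoxc5 on 3 each. These shares describe a short list and carry no test. With the software's milder flag, a signal positive and significant over background, 10 of the 15 were detected on all arrays.

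Detection was set beside the position along the clusters. Probes of paralogue groups 1 to 3 were detected in 26 of 33 pairs of probe and array (78.79%), those of groups 4 to 7 in 45 of 66 (68.18%) and those of groups 9 to 13 in 36 of 66 (54.55%). That order held over both sides together but not on each side, since on the contralateral side the middle class was the highest and on the CFA side the last 2 classes were level. The single groups did not follow it either. Group 4 was detected in 33 of 33 pairs, and the single probes of groups 1, 9 and 10 in 11 of 11 each, while group 5 (Hoxc5) was detected in 3 of 11. Genes of the trunk and tail ends of the clusters, Hoxb9, Hoxd10 and Hoxd13, gave signal in this head ganglion on 9 to 11 arrays. By cluster, the number detected on every array was 0 of 3 in A, 2 of 5 in B, 1 of 3 in C and 3 of 4 in D.

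**Figure D1:**
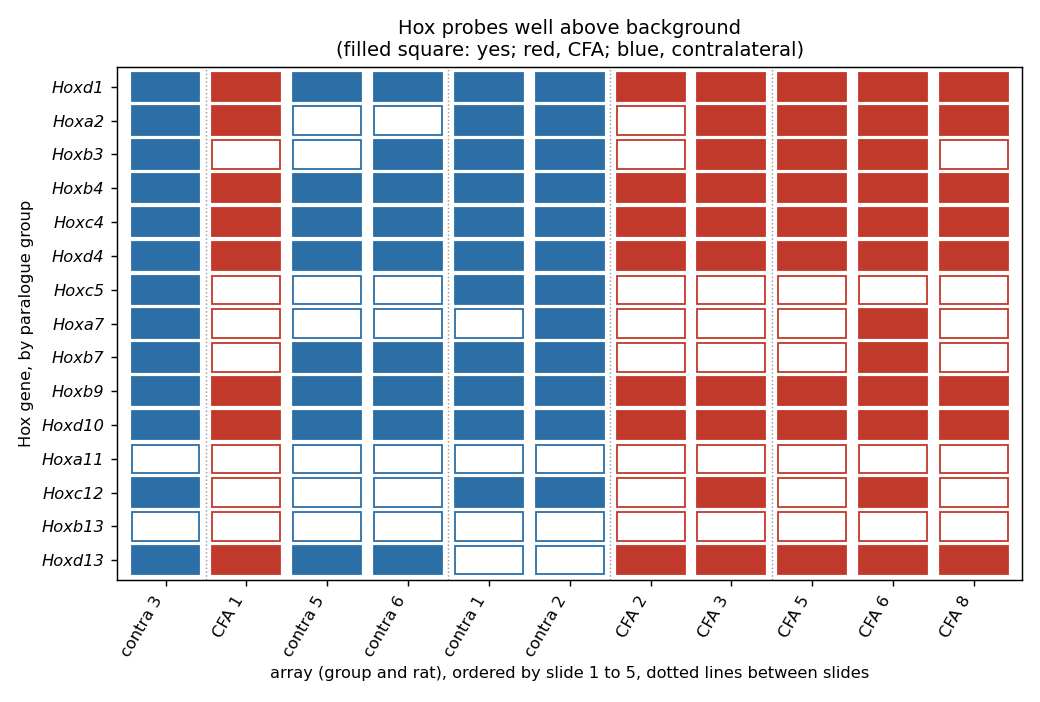
Detection of the 15 Hox probes (vertical axis, by paralogue group) on each of the 11 arrays (horizontal axis, ordered by slide, with dotted lines between slides). A filled square is a spot well above background, red for CFA and blue for contralateral, and 6 rows are filled throughout while Hoxa11 and Hoxb13 are open throughout.

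The number of Hox probes detected per array was 11, 12, 13, 8 and 9 in contralateral rats 1, 2, 3, 5 and 6, and 8, 7, 10, 9, 12 and 8 in CFA rats 1, 2, 3, 5, 6 and 8. The groups overlapped, with a median of 11 on the contralateral and 8.5 on the CFA side. Contralateral rats 5 and 6 and CFA rat 1, the arrays of the only slide with both groups, had 8, 9 and 8. The share of all mRNA probes detected was 83.5% to 90.68% on contralateral and 81.83% to 90.27% on CFA arrays. That share was 83.5%, 85.96% and 85% in contralateral rats 5 and 6 and CFA rat 1. In contralateral rats 1, 2 and 3, with the most Hox probes of their group, it was 89.64% to 90.68%. CFA rats 5 and 6, at 89.89% and 90.27%, had 9 and 12 Hox probes detected. The part of the slide in these counts was not tested. By group, the pairs of groups 4 to 7 were detected in 83.33% on the contralateral and 55.56% on the CFA side, where Hoxc5 (3 of 5 contralateral, 0 of 6 CFA), Hoxb7 (5 of 5, 1 of 6) and Hoxa7 (2 of 5, 1 of 6) differed. On the slide with both groups Hoxc5 and Hoxa7 were detected on no array. Hoxb7 was detected there in contralateral rats 5 and 6 but not in CFA rat 1. The pairs of groups 1 to 3 stood at 80% and 77.78%, and those of groups 9 to 13 at 53.33% and 55.56%.

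The arrays lay on 5 slides scanned on 3 days, and these move with the groups. Slide 2 held contralateral rats 5 and 6 and CFA rat 1 and was the only slide with both groups. Slide 1 held contralateral rat 3, slide 3 contralateral rats 1 and 2, slide 4 CFA rats 2 and 3, and slide 5 CFA rats 5, 6 and 8. Slides 1 to 3 were scanned on day 1, slide 4 on day 2 and slide 5 on day 3, so day 1 held 5 contralateral and 1 CFA array and the later days held CFA arrays only. Outside slide 2 the slide and the group cannot be told apart. Of 15 listed genes of sensory neurons, the defining cells of the labelled tissue, 11 had a probe and all 11 were detected on every array. A list of anterior pituitary genes had a summed signal of 2857 to 107400 on contralateral and 4223 to 307700 on CFA arrays, and a list of central nervous system genes, which a piece of nerve root could carry, 4126 to 54420 and 4009 to 63460. In whole ganglia, fewer cells of a type and less RNA per cell cannot be told apart.

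Between the sides, 1 of the 15 Hox probes, Hoxb7, passed the threshold of the study (unadjusted limma p of 0.05 or less and a fold change over 2), and it was lower on the CFA side. Over all probes 2.02% passed it, 0.863% lower and 1.15% higher on the CFA side. At an unadjusted p of 0.05 or less alone, 3 Hox probes passed (Hoxb7 and Hoxd10 lower, Hoxb9 higher), beside 10.8% of all probes (6.75% lower and 4.02% higher). After Benjamini-Hochberg adjustment over all 24684 probes in limma 0 of the 15 passed at 0.05, as did 0% of all probes. Only Hoxb7 had groups that did not overlap, as had 1.2% of all probes (0.664% lower and 0.531% higher). The log2 change (CFA minus contralateral) was above 0 for 6 and below 0 for 9 of the 15, with a median of -0.041, beside -0.05 over all mRNA probes, of which 6090 were above and 9233 below 0.

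Hoxb7, a gene of the trunk region, had normalised log2 signals of 4.66, 4.51, 5.15, 4.40 and 4.05 in contralateral rats 1, 2, 3, 5 and 6. On the CFA side it was at 3.31, 2.65, 1.81, 1.41, 3.24 and 2.26 in rats 1, 2, 3, 5, 6 and 8. Every CFA array lay below every contralateral array, and the probe was well above background on all 5 contralateral arrays but only on the array of CFA rat 6 among the 6. The means were 2.45 ± 0.77 (SD, n = 6) and 4.55 ± 0.40 (SD, n = 5), a measured log2 change of -2.11 (SE 0.35, limma adjusted p = 0.184). Its unadjusted limma p was 9.747e-05, and the 2-sided exact permutation test gave p = 0.00217, the smallest that 462 splits of the arrays allow. The CFA side was lower in 5 of 5 rats, by -0.81 to -3.34 on the log2 scale. Given groups without overlap, that direction and the exact p were fixed, so neither is separate support.

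Since 5 of the 6 CFA values were not well above background, the size of this difference depended on how background was treated. Without background subtraction the log2 change was -0.55 (limma adjusted p = 0.424), with the normexp model of background it was -0.29 (adjusted p = 0.521), and with low signals raised to the lowest level well above background it was -1.18 (adjusted p = 0.521). The first 2 of these fell short of a 2-fold change. Within slide 2 CFA rat 1 (3.31) stood below contralateral rats 5 (4.40) and 6 (4.05), a log2 difference of -0.91. With slide as a block the change was -0.91 (limma adjusted p = 0.846), and with scan day as a block -1.24 (limma adjusted p = 0.913), neither past the threshold of the study. With slide as a random effect it was -1.80 (limma adjusted p = 0.786) and passed that threshold. Of 6 listed endothelial markers 5 had a probe, 0 passed the threshold in either direction and Cdh5 was detected on no array. Their summed signal was 14180 to 16670 on contralateral and 11230 to 14600 on CFA arrays, with CFA rat 1 within the contralateral range. On slide 2 it was 14410 and 15180 in contralateral rats 5 and 6 and 14600 in CFA rat 1. The part of endothelial cells in the Hoxb7 result was not tested.

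**Figure D2:**
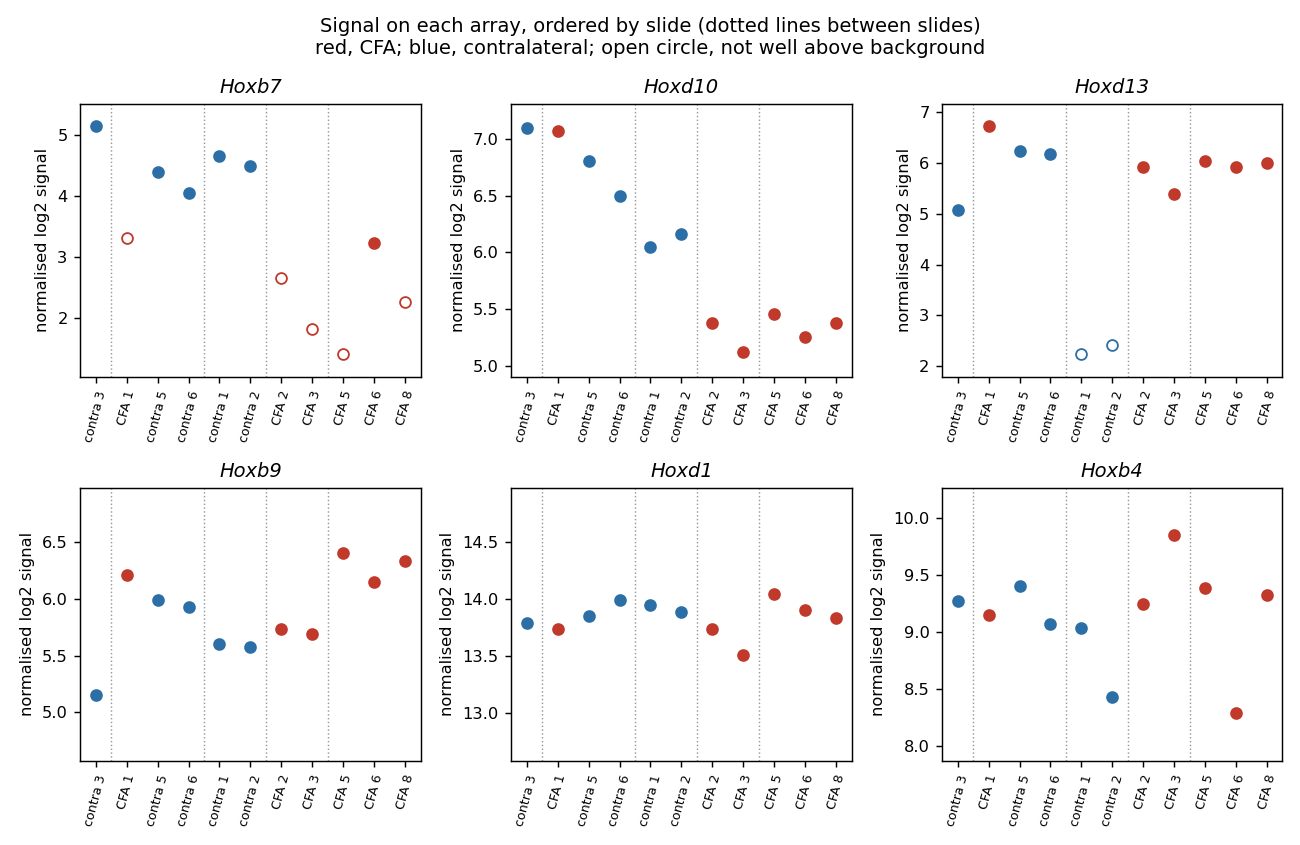
Normalised log2 signal (vertical axes, 1 scale per panel) of 6 Hox probes on each array (horizontal axis, ordered by slide with dotted lines between slides). Red is CFA, blue contralateral, and an open circle is a spot not well above background. Hoxb7 separates the groups over all arrays and so also within slide 2, Hoxd10 is high on all arrays of slides 1 to 3 including CFA rat 1, and Hoxd13 is low on slide 3 only.

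Hoxd10, known for the lumbar spinal cord and the hind limb, had signals of 6.05, 6.16, 7.09, 6.81 and 6.49 in contralateral rats 1, 2, 3, 5 and 6. In CFA rats 1, 2, 3, 5, 6 and 8 it was at 7.06, 5.38, 5.12, 5.46, 5.26 and 5.38. CFA rat 1 stood within the contralateral range and the other 5 CFA arrays below it. The log2 change was -0.91 (SE 0.34, limma p = 0.0221, adjusted p = 0.426, exact permutation p = 0.0455), under a 2-fold change. By scan day, the 6 arrays of day 1, of both groups, lay at 6.05 to 7.09 and the 5 CFA arrays of days 2 and 3 at 5.12 to 5.46. Within slide 2 the difference ran the other way, at 0.41, as it did with slide (0.41) or scan day (0.54) as a block. Without CFA rat 1 the log2 change was -1.20 (limma adjusted p = 0.0346) and passed the threshold, as it also did without contralateral rat 1 (-1.03) or rat 2 (-1.003) and without slide 2 (-1.12, limma adjusted p = 0.0447). Without CFA rat 1 or slide 2, all contralateral arrays were of day 1 and all CFA arrays of later days. In those fits group and scan day cannot be told apart. Hoxb7 there had a limma adjusted p of 0.0272 without CFA rat 1 and 0.0252 without slide 2. The share of all probes with an adjusted p of 0.05 or less in those fits is not given here. Whether the Hox probes stand out in them cannot be said.

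Hoxb9, of the thoracic and lower cervical region, was higher on the CFA side at an unadjusted p only. It had signals of 5.60, 5.57, 5.16, 5.99 and 5.92 in contralateral rats 1, 2, 3, 5 and 6. In CFA rats 1, 2, 3, 5, 6 and 8 it was at 6.21, 5.74, 5.69, 6.40, 6.15 and 6.33. The groups overlapped, CFA rats 2 and 3 lying within the contralateral range. The log2 change was 0.44 (SE 0.18, limma p = 0.0372, adjusted p = 0.449, exact permutation p = 0.0498). The CFA side was higher in 5 of 5 rats, by 0.16 to 0.61, and the difference within slide 2 was 0.25. Its sign was the same in every setting tried, from 0.19 to 0.62, but its unadjusted p was over 0.05 in 11 of 27 settings, among them slide as a block (limma adjusted p = 0.798), scan day as a block and 7 of the 11 that left out a single array (contralateral rats 1, 2 and 3, CFA rats 1, 5, 6 and 8).

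Hoxd13, the gene of the last paralogue group known for the digits, was detected on all 6 CFA and 3 of 5 contralateral arrays. Its signals were 2.24, 2.42, 5.08, 6.25 and 6.19 in contralateral rats 1, 2, 3, 5 and 6. In CFA rats 1, 2, 3, 5, 6 and 8 they were 6.72, 5.92, 5.39, 6.04, 5.92 and 6.00. The contralateral arrays of slide 3 (rats 1 and 2) stood far below the other 9 arrays, which lay between 5.08 and 6.72. The log2 change of 1.57 (SE 0.75, limma adjusted p = 0.478, exact permutation p = 0.0952) did not pass the threshold, and within slide 2 it was 0.51. It passed without contralateral rat 5 (2.02), without contralateral rat 6 (2.00) and without slide 2 (2.61).

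**Figure D3:**
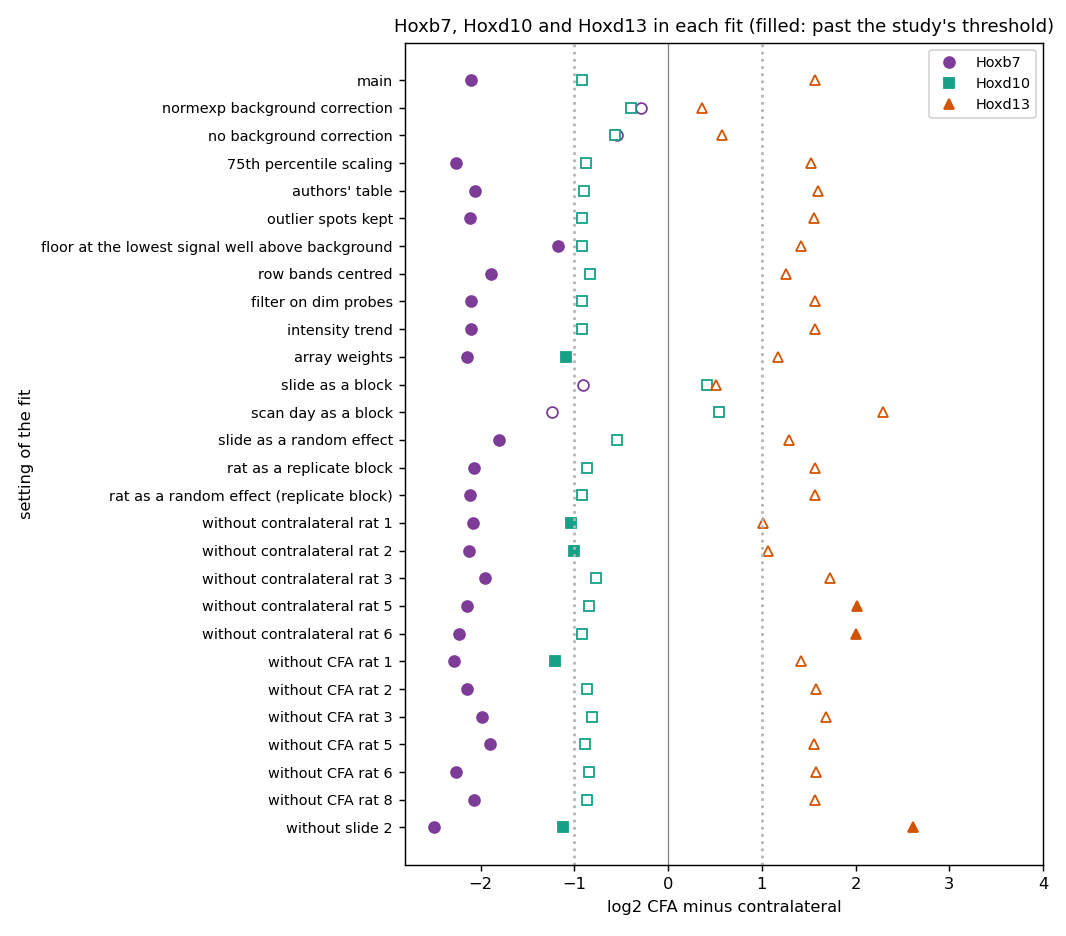
Log2 change (horizontal axis, CFA minus contralateral) of Hoxb7, Hoxd10 and Hoxd13 in each setting of the fit (vertical axis). A filled symbol passed the threshold of the study, and dotted lines mark a 2-fold change. Hoxb7 is open with the normexp model, without background subtraction and with slide or scan day as a block, and Hoxd10 changes sign with either block.

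Among the genes at the head end of the clusters Hoxd1 was detected on every array, a gene known in the embryonic mouse from the nociceptors of dorsal root ganglia. Its signals were 13.95, 13.89, 13.79, 13.86 and 14.00 in contralateral rats 1, 2, 3, 5 and 6. In CFA rats 1, 2, 3, 5, 6 and 8 they were 13.74, 13.74, 13.51, 14.05, 13.91 and 13.84. The values varied little within a group (SD 0.08 and 0.18), the groups overlapped, and the log2 change was -0.10 (SE 0.10, exact permutation p = 0.29).

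Group 4 genes, whose domains begin in the rear hindbrain, were detected on every array. Hoxb4 was at 9.03, 8.42, 9.27, 9.40 and 9.07 in contralateral rats 1, 2, 3, 5 and 6. In CFA rats 1, 2, 3, 5, 6 and 8 it was at 9.15, 9.25, 9.85, 9.39, 8.28 and 9.33. The groups overlapped, and contralateral rat 2 and CFA rat 6 were the lowest of their groups (log2 change 0.17, SE 0.26, exact permutation p = 0.541, and -0.089 within slide 2). Hoxd4 was at 7.05, 6.91, 7.65, 7.33 and 7.09 on the contralateral side and 7.43, 7.26, 7.09, 7.08, 6.99 and 7.14 on the CFA side. Its groups overlapped as well (log2 change -0.041, SE 0.14, exact permutation p = 0.777). Hoxc4 was at 6.42, 6.84, 6.80, 5.60 and 5.08 on the contralateral side and 5.02, 6.96, 6.23, 6.25, 6.07 and 6.30 on the CFA side. The 3 arrays of slide 2, of both sides, were the lowest for Hoxc4, at 5.02 to 5.60, and the other 8 lay at 6.07 to 6.96. Its log2 change between the sides was -0.0077 (SE 0.39, exact permutation p = 0.98).

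Hoxa2, the Hox gene whose domain reaches farthest toward the head in the hindbrain, was detected on 5 of 6 CFA and 3 of 5 contralateral arrays, with a log2 change of -0.13 (SE 0.23, exact permutation p = 0.619). Its values were 4.85, 4.27, 4.57, 3.85 and 3.55 in contralateral rats 1, 2, 3, 5 and 6. On the CFA side they were 4.31, 3.99, 4.53, 3.88, 3.90 and 3.93 in rats 1, 2, 3, 5, 6 and 8. After these values were seen they were set beside Gfap, a gene of astrocytes and 1 of the listed central nervous system genes, in the same arrays. The study also followed Gfap in this ganglion by qPCR, as an activation marker after CFA. Gfap was at 15.23 and 15.00 in contralateral rats 1 and 3 and at 15.19, 14.06 and 15.33 in CFA rats 1, 2 and 3, and at 10.13 to 11.002 on the other 6 arrays. Contralateral rats 1 and 3 and CFA rat 3 thus had both the 3 highest Hoxa2 values, 4.53 to 4.85, and Gfap at 15.00 or above. The order did not hold throughout, since CFA rat 2 (Gfap 14.06) had Hoxa2 at 3.99 and contralateral rat 2 (Gfap 10.97) had it at 4.27. Within slide 2, CFA rat 1 had Gfap at 15.19 and Hoxa2 at 4.31, and contralateral rats 5 and 6 had Gfap at 10.23 and 11.002 and Hoxa2 at 3.85 and 3.55. Of the 7 listed central nervous system genes 6 had a probe and 5 of these were detected on every array, and their part in the Hoxa2 values was not tested.

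**Figure D4:**
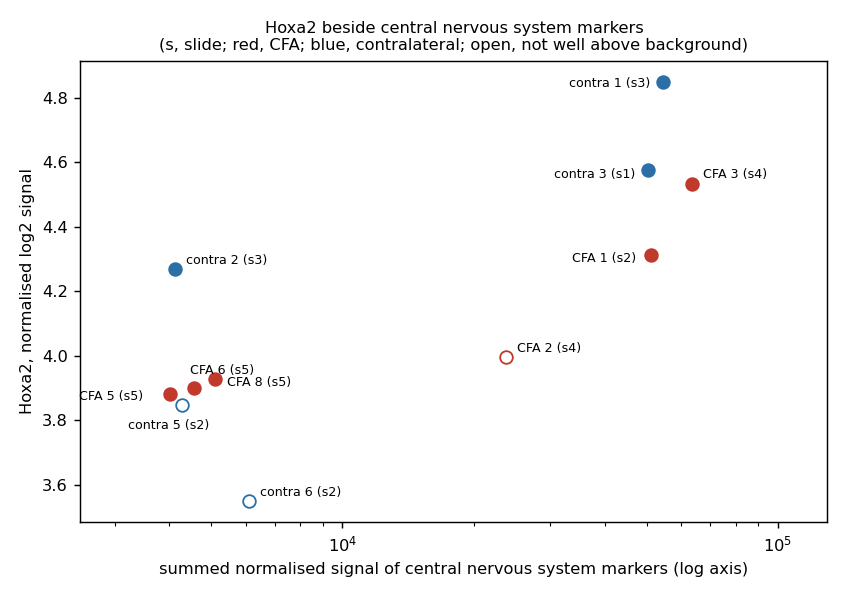
Normalised log2 signal of Hoxa2 (vertical axis) against the summed normalised signal of 6 central nervous system markers (horizontal axis, log scale) on each of the 11 arrays, labelled by group, rat and slide (s). Gfap is among these markers, so the sum is not separate from it. Red is CFA, blue contralateral, and an open circle is not well above background for Hoxa2. Contralateral rat 2 is the array with low markers and the highest Hoxa2 among those with low markers, at 4.27.

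The remaining probes (Hoxb3, Hoxc5, Hoxa7, Hoxa11, Hoxc12 and Hoxb13) were dim on most arrays, and none passed the threshold. Hoxc5, a gene of the neck region, was detected on contralateral rats 1, 2 and 3 and on no CFA array. The measured means were 3.07 ± 0.23 (SD, n = 5) on the contralateral and 2.73 ± 0.45 (SD, n = 6) on the CFA side, and the limma adjusted p was 0.552. Its groups overlapped, at 2.85 to 3.45 on the contralateral and 1.95 to 3.15 on the CFA side. CFA rats 1, 2 and 3, not detected, were at 3.15, 3.08 and 3.02, above contralateral rat 2, detected at 2.90. Hoxa7 ran from 1.58 to 3.30 on the contralateral and 1.01 to 3.13 on the CFA side. Hoxb3 ran from 2.96 to 3.74 on the contralateral and 2.93 to 3.87 on the CFA side, and Hoxc12 from 1.55 to 3.69 and 1.34 to 3.63, so that the groups overlapped for each of these 3.

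The share of probes passing the threshold differed with the position on the array, so the Hox probes were placed by row. Among probes with 1 spot, 4.428% in rows 1 to 133 passed as higher and 0% as lower, and in rows 400 to 532 0.2019% passed as higher and 3.861% as lower. Hoxb7 (row 502) lay among the last of these rows and Hoxd13 (row 74) among the first, each where most probes passing the threshold ran in its own direction. After the median of the same band of rows was subtracted on each array (20 bands), Hoxb7 passed (log2 change -1.89, limma adjusted p = 0.233). Hoxd13 stood at 1.26 (limma adjusted p = 0.371), and Hoxd10 (row 390) at -0.83 (limma adjusted p = 0.341). That step moves all probes of a band alike. Among probes with 1 spot the median log2 change was 0.028 in rows 1 to 133 and -0.021 in rows 400 to 532. The part of position in the Hoxb7 and Hoxd13 changes was not tested.

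**Figure D5:**
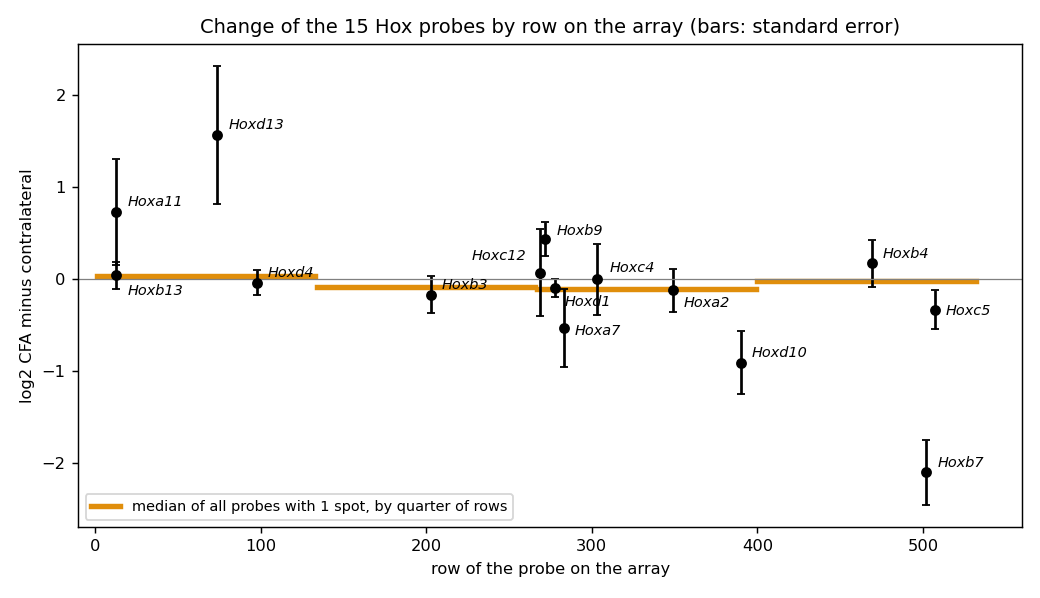
Log2 change (vertical axis, CFA minus contralateral, bars are standard errors) of the 15 Hox probes against the row of the spot on the array (horizontal axis). Orange lines are the medians of all probes with 1 spot in each of 4 bands of rows, between -0.11 and 0.03, and Hoxb7 at row 502 lies farthest below 0.

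Partners and regulators of Hox genes were taken from lists of named genes. Of 8 listed TALE cofactors 6 had a probe (Pbx2, Pbx3, Pbx4, Meis1, Meis3 and Pknox1), all 6 were detected on every array, and none passed the threshold. Their log2 changes ran from -0.33 (Meis1, SE 0.18) to 0.30 (Pbx3, SE 0.26), with a median of 0.084. Of 28 listed regulators of Hox expression, such as chromatin and retinoic acid genes, 21 had a probe, 19 were detected on every array, 0 passed as higher and 1, Cdx2, as lower. Over all 13903 genes with a symbol 79.82% were detected on every array, 176 passed as higher and 127 as lower, with a median log2 change of -0.05.

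Cdx2, a homeobox gene that drives the tail-end Hox genes in the embryo, was detected on 5 of 11 arrays. Its signals were 3.30, 3.56, 3.22, 3.05 and 3.40 in contralateral rats 1, 2, 3, 5 and 6. In CFA rats 1, 2, 3, 5, 6 and 8 they were 1.17, 2.74, 1.57, 2.93, 2.77 and 1.80. The groups did not overlap, and the log2 change was -1.14 (SE 0.32, limma adjusted p = 0.302). As for Hoxb7 the size depended on the treatment of dim signals, with -0.13 (limma adjusted p = 0.907) where low signals were raised to the lowest level well above background. Within slide 2 it was -2.05, and it missed the 2-fold limit without CFA rat 1 (-0.94) and without slide 2 (-0.996). With slide as a block it was -2.05 and with scan day as a block -2.13, both past the threshold. CFA rat 1, the only CFA array on slide 2 and on scan day 1, had the lowest Cdx2 signal.

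Homeobox genes of the head and of sensory neurons, many of which pattern the head or specify sensory neurons, had a probe for 34 of 56 listed. Of these 27 (79.41%) were detected on every array and 0 passed the threshold in either direction, with a median log2 change of -0.07. Of 13 listed genes that flank the Hox clusters on the chromosome 9 had a probe, 8 were detected on every array and 0 passed, with a median of 0.09. These shares can be set beside the 40% of the Hox probes, though the lists are short and none was tested against another.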

How the data were processed

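RNA of 11 trigeminal ganglia was measured on single-colour Arraystar arrays (1 per ganglion, random-primed labelling). The intensity values were deposited by the authors as scanner output of Agilent Feature Extraction 11.0.1.1 per the labels, with background subtracted and no scaling between arrays, and as a table of quantile normalised intensities, used as an alternative.

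Control spots (1417 of 43553) were left out and spots marked as outliers (1.384%) set to missing. Processed signals were put on the log2 scale and quantile normalised, spots of a probe were averaged, and 24684 probes were tested in limma 3.58.1 (R 4.3.3) without covariates, as the methods name no pairing. The steps were tested on simulated data. Thresholds were an unadjusted p of 0.05 with a fold over 2, and a Benjamini-Hochberg adjusted p of 0.05. Single probes also had a 2-sided exact permutation test. P-values measure the spread between ganglia, and both sides of a rat are not independent animals. Samples with the same rat number came from 1 animal. The correlation of their deviations from the group means was -0.05, -0.08, -0.03, -0.01 and 0.13 in rats 1, 2, 3, 5 and 6.

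Accessions were named through the RefSeq table of GRCr8 (14274 of 15323 mRNA probes matched), an assembly other than that of the array design, so no array coordinates are given. A Hox gene and a TALE cofactor that the lists would hold are not reported here and are in no count over these lists. The Hox genes and all lists were chosen with earlier results of these data known. Values on every array were given for Hox probes that passed the threshold, had no overlap between groups or were detected on every array; Hoxd13 and Hoxa2 were added after their values were seen. Genes of the lists (TALE cofactors, Hox regulators, homeobox genes of the head and of sensory neurons, flanking genes, and cell type markers) were named where they passed, TALE cofactors also where detected on every array. Other marker lists (satellite glia, Schwann cells, fibroblasts, macrophages, T and B cells, red blood cells, skeletal muscle) gave 0 genes past the threshold except 1 higher in Schwann cells, and their summed signals overlapped between the groups. Alternatives covered background, scaling, floor, row, slide, scan day, pairing and single arrays. The scanner's mean signal was not used here, and its median signal took its place in the fits without background subtraction and with normexp (offset 50).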

Additional observations from a re-analysis of the deposited data

Results flagged for a closer look

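In CFA rat 1 the Hoxd10 signal (7.06) stood apart from the other 5 CFA arrays, which lay between 5.12 and 5.46. The gap to the nearest of them was 0.828 of the range of the group. It was 1 of 30 groups of values looked at in this way, and chance alone flags about 1 group in 20. That array was the only CFA array on slide 2 and on scan day 1, and the part of either in the value was not tested.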

How the results depend on the processing

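The processing was varied in 27 settings, and the threshold is that of the study. The number of Hox probes past it was 0 with normexp, without background subtraction and with slide or scan day as a block. It was 2 with array weights (Hoxb7 and Hoxd10), 1 to 2 when each array was left out in turn, and 3 without slide 2 (Hoxb7, Hoxd10 and Hoxd13), a setting chosen after seeing the data. The share of all probes past the threshold is given for the main fit only (2.02%). These counts therefore have no share over all probes beside them and are not read as results about Hox genes. Without slide 2 or without CFA rat 1, group and scan day cannot be told apart. The number of Hox probes detected on every array was 10 with the milder flag and 6 with outlier spots kept. The median log2 change over Hox probes ran from -0.14 to 0.079, and leaving out 1 array gave -0.14 to -0.0053.

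The Hoxb7 log2 change was below 0 throughout. It did not pass the threshold at -0.29 (normexp), -0.55 (no background subtraction), -0.91 (slide as a block, and the same within slide 2) and -1.24 (scan day as a block), and leaving out 1 array gave -2.28 to -1.90. Hoxd10 reversed to 0.41 with slide as a block and within slide 2, and to 0.54 with scan day as a block. It passed at -1.09 with array weights (limma adjusted p = 0.136), and leaving out 1 array gave -1.20 to -0.77 (Hoxd13: 1.02 to 2.02).

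At an unadjusted p of 0.05 alone, Hoxb9 did not pass in 11 of 27 settings (normexp, intensity trend, slide or scan day as a block, and 7 single arrays left out, at 0.31 to 0.42), and Hoxd10 in 6 (normexp, slide as a block or random effect, scan day or rat as a block, and without contralateral rat 3).

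Changes near 0 also turned sign. Hoxc4 was 0.034 with normexp, 0.030 without background subtraction, 0.028 with 75th percentile scaling, 0.088 with rows centred and 0.20 with array weights, and ran from -0.28 to 0.22 with single arrays left out. Hoxd4 was 0.013 with 75th percentile scaling, 0.014 with slide as a random effect and 0.22 with slide or scan day as a block and within slide 2, with -0.12 to 0.071 for single arrays. Hoxa2 was 0.62 with slide as a block and within slide 2, 0.096 with scan day as a block and 0.062 with slide as a random effect, with -0.29 to 0.032 for single arrays. Hoxb4 was -0.089 with slide as a block and within slide 2, and -0.025 with array weights. The cause was not tested. Cdx2 did not pass with normexp (-0.09), without background subtraction (-0.22), with the floor (-0.13) or with array weights (-0.81).

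With the rat as a replicate block, on the 5 rats with both sides, Hoxb7 was at -2.07 (limma adjusted p = 0.344), and with the rat as a random effect at -2.11. At the threshold of the study the pairing changed no call on the Hox probes or Cdx2. At an unadjusted p of 0.05 alone Hoxd10 no longer passed with the rat as a block (-0.87, limma adjusted p = 0.535), and did with the rat as a random effect. Signal over background limited 9 of the 15 probes, which were not detected on at least 1 array, and for those a change rests partly on signals near background.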
